A study of Mus musculus with 24 samples.

Results

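The IL-1 receptor family was followed in 3 subsets of splenic regulatory T (Treg) cells from young and old mice. Its 7 members were taken by gene symbol from the normalized RNA-seq table: Il1rl1, which encodes ST2, the receptor for IL-33; Il1rap, the shared co-receptor; the IL-18 receptor chains Il18r1 and Il18rap; Il1r1, the signalling receptor for IL-1; Il1r2, its decoy; and the inhibitory receptor Sigirr. All 7 were among the 17464 genes listed, and all 7 passed the filter on low values (10 normalized units or more in 4 libraries or more) that left 16630 genes for testing. Resting Treg (rTreg) cells were sorted as CD62L+ CD44-, activated Treg (aTreg) cells as CD62L- CD44+ and kTreg cells as KLRG1+, all from WT C57BL/6JRccHsd mice with no treatment named, 4 of them young (2 months) and 4 old (26 months). Every mouse gave 1 library of each subset, so 24 libraries fell into 6 groups of 4. The study used males and females, and the sex of each mouse was not used here.

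Receptors of this family work in pairs: a ligand-binding chain captures IL-1, IL-33 or IL-18 and then recruits an accessory chain, IL-1RAP for IL-1 and IL-33 and the product of Il18rap for IL-18. The joined intracellular domains recruit MYD88 and IRAK kinases and activate NF-kB. ST2 is best known on mast cells, basophils, type 2 innate lymphoid cells and the Treg cells of non-lymphoid tissues, where IL-33 supports their expansion. IL-1R2 binds IL-1 without a signalling domain, and SIGIRR dampens signals of the other receptors.

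Library depth, as reads on listed genes, was 15045747 to 29521942, and each read contributed 0.694 to 1.32 normalized units. The labels of the sort were borne out by its markers, since Klrg1 was never under 16559 in a kTreg library and never over 357 in the remaining 16, and Foxp3, Il2ra and Cd4 were detected in all 24. Some libraries stood apart. The 4 old rTreg libraries had summed values of 5154 to 14511 for 8 markers of mast cells and basophils, all 8 of them listed, against 236 to 298 in young rTreg libraries, and 10235 to 26440 for 6 markers of macrophages and monocytes, against 575 to 8152. Replicate 2 of the young mice carried the highest B cell marker sums of its group in all 3 subsets (15264 in rTreg, 8326 in aTreg and 6768 in kTreg cells). Its kTreg library also had a macrophage and monocyte sum of 19824, within the range of the old rTreg libraries. Young kTreg replicate 4 listed 4913 genes at 0, against at most 2756 in any other library, and old aTreg replicate 2 had the lowest Foxp3 value, 5079. Differences of kTreg and aTreg cells from rTreg cells are given below with and without the old rTreg libraries, and the age contrasts of rTreg cells and the interactions with rTreg cells cannot be formed without them.

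Of the 7 members, 5 lie on chromosome 1 within 477627 bases, all on the plus strand, in the order Il1r2, Il1r1, Il1rl1, Il18r1 and Il18rap, with Il1rl2, the IL-36 receptor, between Il1r1 and Il1rl1 (GRCm39, GENCODE M39). Il1rl1 (ENSMUSG00000026069) covers chr1:40468730-40504575 and Il18r1 (ENSMUSG00000026070) chr1:40504712-40540014. Il18rap (ENSMUSG00000026068) covers chr1:40554522-40590865, Il1r1 (ENSMUSG00000026072) chr1:40264174-40356417 and Il1r2 (ENSMUSG00000026073) chr1:40113239-40164391. The remaining members are Il1rap on chromosome 16 (ENSMUSG00000022514, chr16:26400350-26548880, plus strand) and Sigirr on chromosome 7 (ENSMUSG00000025494, chr7:140670832-140680517, minus strand). Il1rl1 also makes a shorter transcript for soluble ST2, and counts per gene do not separate it from the receptor transcript.

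The sequences shown are the 250 bases before the start of Il1rl1 and of Il18rap, the members with the largest differences between subsets or ages, and the whole stretch between Il1rl1 and Il18r1, whose ends lie 136 bases apart. RefSeq promoter windows were found for 6 of the 7 members (10 windows, from a table on GRCm38.p6), and the 2 windows printed were placed on GRCm39 by an exact match. None of the 3 stretches overlaps an annotated exon. All are on the plus strand, and capitals mark the letters GATAA, on either strand, which GATA factors bind.
Il1rl1, chr1:40468480-40468729: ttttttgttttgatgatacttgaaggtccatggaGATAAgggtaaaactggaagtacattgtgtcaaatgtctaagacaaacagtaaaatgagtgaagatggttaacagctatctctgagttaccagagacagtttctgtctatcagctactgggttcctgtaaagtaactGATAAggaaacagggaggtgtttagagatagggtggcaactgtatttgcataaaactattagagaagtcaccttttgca
Il18rap, chr1:40554272-40554521: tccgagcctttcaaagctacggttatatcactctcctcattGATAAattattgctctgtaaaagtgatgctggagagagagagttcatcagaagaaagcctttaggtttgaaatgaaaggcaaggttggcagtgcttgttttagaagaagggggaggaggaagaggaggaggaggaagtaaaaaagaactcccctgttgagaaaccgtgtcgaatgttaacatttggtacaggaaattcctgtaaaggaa
Between Il1rl1 and Il18r1, chr1:40504576-40504711: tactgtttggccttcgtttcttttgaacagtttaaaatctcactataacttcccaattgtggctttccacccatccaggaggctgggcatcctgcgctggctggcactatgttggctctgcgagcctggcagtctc
The printed window of Il1rl1 holds 2 matches and that of Il18rap 1, and the stretch between Il1rl1 and Il18r1 holds 0. Among the windows not printed, a second one of Il1rl1 (chr1:40478539-40478788) and that of Il1r2 hold 1 match each. Those of Il1rap, Il1r1 and Il18r1 hold 0. At least 1 match was present in 22.6% of 32851 RefSeq promoter windows of this length. The letters TGANTCA, read by AP-1 factors including BATF, were absent from all 3 printed stretches and were found in 6.7% of promoter windows. These matches are descriptions of the letters and say nothing of binding.

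Differences between subsets were examined first, with young and old mice given equal weight. Calls came from limma on log2(normalized value + 1) and required a fold change above 1.5 with a p under 0.05 after Benjamini-Hochberg adjustment over all 16630 genes. kTreg cells had higher Il1rl1 and Il18rap and lower Il1r1 than aTreg cells, so 2 of 7 members were called higher, where 4.13% of all genes tested were, and 1 lower, where 3.26% were. Against rTreg cells, kTreg cells had higher Il1rl1, Il18rap, Il18r1 and Il1r2, 4 of 7 members called higher against 9.37% of all genes and 0 lower against 6.09%. aTreg cells exceeded rTreg cells in Il1r1, Il1r2, Il18r1 and Il18rap, 4 of 7 members against 5.23% of all genes, and were lower in Il1rl1, 1 of 7 against 2.78%. The median log2 difference of the 7 members was -0.04 for kTreg minus aTreg, 1.37 for kTreg minus rTreg and 1.19 for aTreg minus rTreg, beside -0.08, -0.01 and 0.06 over all genes tested. Without the 4 old rTreg libraries, aTreg and kTreg cells could be compared with rTreg cells in young mice alone, and the members called were then 4 for kTreg minus rTreg but 2 for aTreg minus rTreg, Il18r1 and Il18rap. Over all genes tested, 9.66% were then called higher and 8.73% lower for kTreg minus rTreg, and 3.6% higher and 0.944% lower for aTreg minus rTreg, so the calls over all genes fell in aTreg minus rTreg as well.

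**Figure D1:**
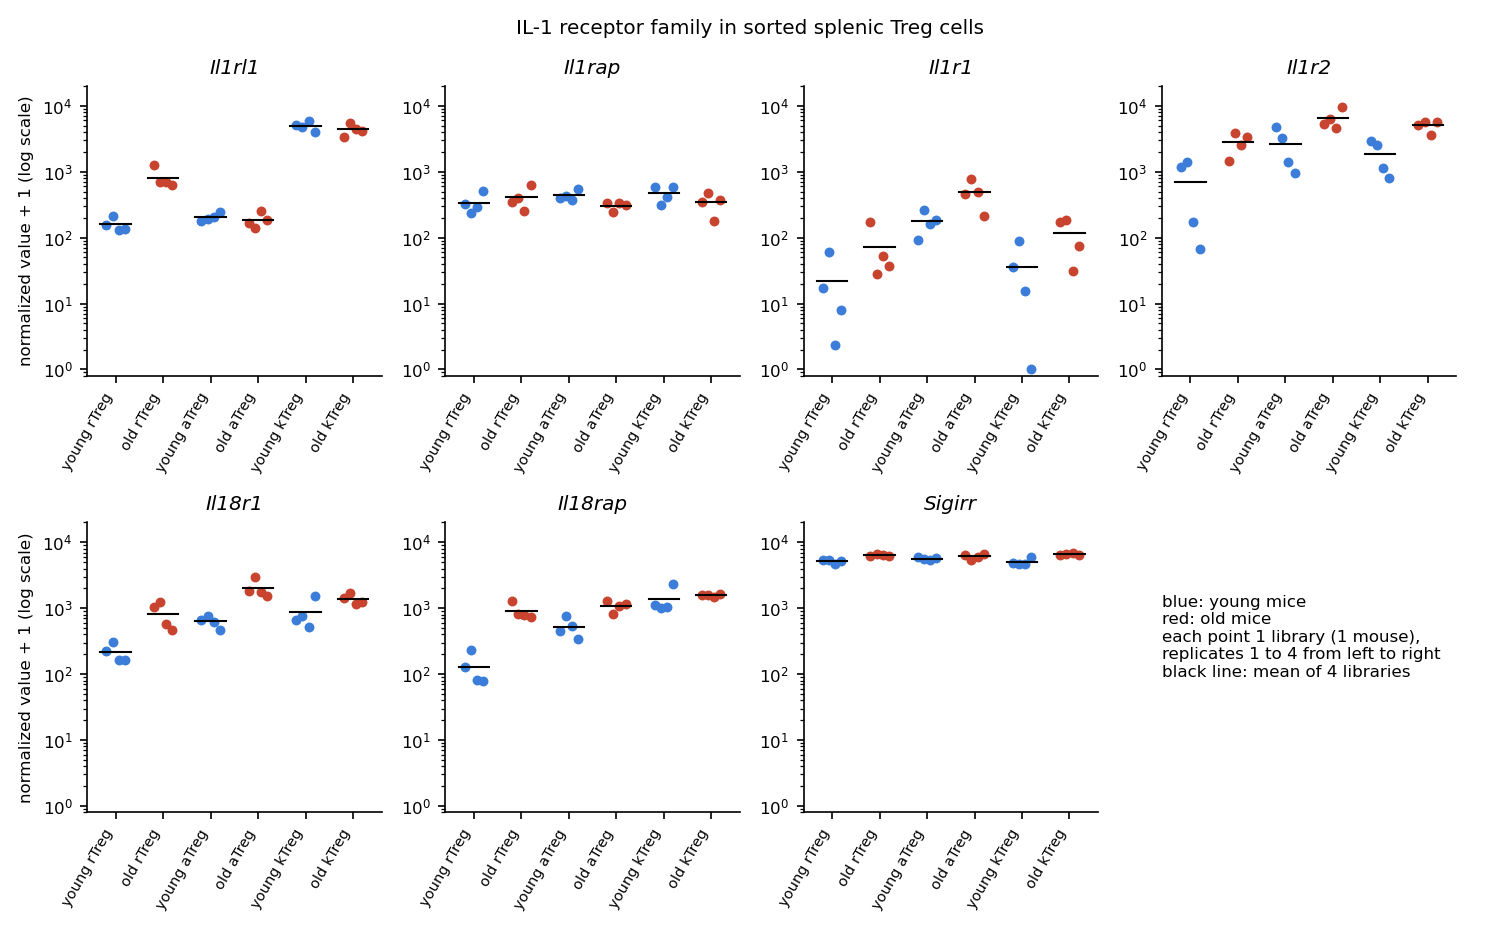
Normalized value plus 1 (log scale) of each of the 7 members in every library, by subset and age, with young mice in blue, old mice in red and the mean of the 4 libraries as a line. Il1rl1 is highest in kTreg cells at both ages, with old rTreg cells next, while Il1rap and Sigirr are nearly level.

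Il1rl1, the IL-33 receptor gene, set kTreg cells apart from both other subsets. In young mice its normalized values were 5070, 4697, 5859 and 3991 in kTreg cells (replicates 1 to 4), 175, 192, 203 and 243 in aTreg cells and 154, 209, 132 and 133 in rTreg cells. In old mice they were 3355, 5579, 4395 and 4222 in kTreg cells, 164, 139, 257 and 185 in aTreg cells and 1249, 688, 686 and 629 in rTreg cells. Every kTreg library was above every other library, and the old rTreg libraries filled the space between. In order of the means, young kTreg (4904 ± 778, SD, n = 4) and old kTreg cells (4388 ± 915) overlapped, old rTreg cells followed at 813 ± 292, and young aTreg (203 ± 29.1), old aTreg (186 ± 50.5) and young rTreg cells (157 ± 36.2) overlapped at the bottom. Since these are bulk libraries, fewer positive cells and less RNA per cell cannot be told apart.

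The difference between kTreg and aTreg cells had the smallest p of all 16630 genes and was nearly equal at both ages, at 4.58 ± 0.23 (log2, SE) in young and 4.57 ± 0.23 in old mice. Its age difference was -0.02 (95% confidence interval -0.68 to 0.65, limma adjusted p = 0.99). Against rTreg cells the difference was 4.97 ± 0.23 in young and 2.47 ± 0.23 in old mice, and both values were called. The lower Il1rl1 of aTreg than rTreg cells, -0.86 ± 0.16 (limma adjusted p = 0.00095), rested on the old mice, being -2.10 ± 0.23 there and 0.38 ± 0.23 (adjusted p = 0.52) in young mice, with aTreg above rTreg cells in 3 of 4 young mice and 0 of 4 old mice. Without the old rTreg libraries the sign thus turned.

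**Figure D2:**
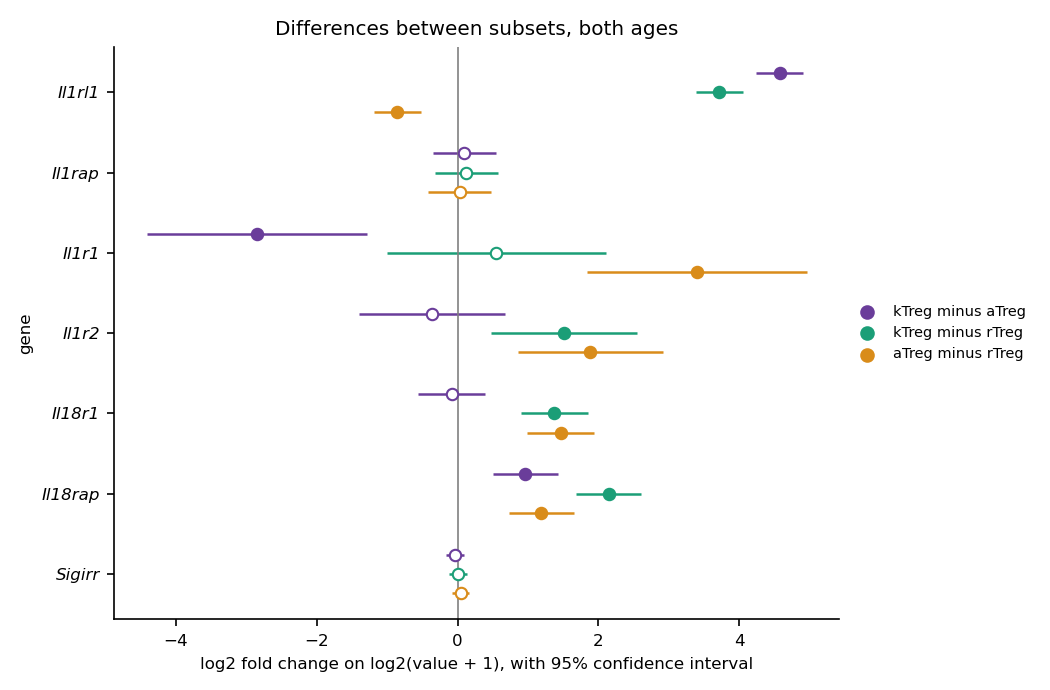
Log2 fold change, on log2(normalized value + 1), of each member between subsets with young and old mice given equal weight, with 95% confidence intervals, and filled points for those called. Il1rl1 reaches 4.57 for kTreg minus aTreg, while Sigirr and Il1rap stay near 0 in every contrast.

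Il1rap, the accessory chain that ST2 and IL-1R1 share, did not follow Il1rl1. Its normalized values ranged from 181 to 634 over the 24 libraries and overlapped between all subsets. The log2 difference was 0.09 for kTreg minus aTreg (95% confidence interval -0.35 to 0.54) and 0.12 for kTreg minus rTreg (-0.33 to 0.57), neither called by limma (adjusted p = 0.83 and 0.73). These intervals leave out a change of the size seen for Il1rl1. Per kilobase of exon, the means in young kTreg cells were 711 normalized units for Il1rl1 and 31.0 for Il1rap, and those in young aTreg cells 29.5 and 28.5. For all values per kilobase, exon length joined the annotated exons of all transcripts, 6894 bases for Il1rl1 and 15282 for Il1rap. The transcripts expressed may be shorter, so comparisons between genes on this scale depend on the annotation.

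The balance of ligand-binding and accessory chains was therefore described as a log2 ratio in each library, not corrected for gene length and with no test. The Il1rl1 to Il1rap ratio averaged 3.40 ± 0.55 (SD, n = 4) in young and 3.74 ± 0.59 in old kTreg cells, against -1.09 ± 0.15 in young and -0.73 ± 0.28 in old aTreg cells. In rTreg cells it was -1.08 ± 0.70 in young and 1.02 ± 0.81 in old mice. The ratio was higher in kTreg than in aTreg cells in 8 of 8 mice and than in rTreg cells in 8 of 8. The Il1r1 to Il1rap ratio ran the other way, being lower in kTreg than in aTreg cells in 8 of 8 mice, with means of -4.94 and -1.39 in young and -1.80 and 0.54 in old mice. The young kTreg mean includes replicate 4, with 0 reads of Il1r1, where the ratio of -9.21 was set by the added 1 and would be -7.30 at 3 reads, and it was -3.51 (n = 3) without that library. The Il18r1 to Il18rap ratio was also lower in kTreg than in aTreg cells in 8 of 8 mice, by 1.04 on average, and the Il1r2 to Il1r1 ratio was higher in 8 of 8, its young kTreg mean being 6.75 with and 5.78 without replicate 4.

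**Figure D3:**
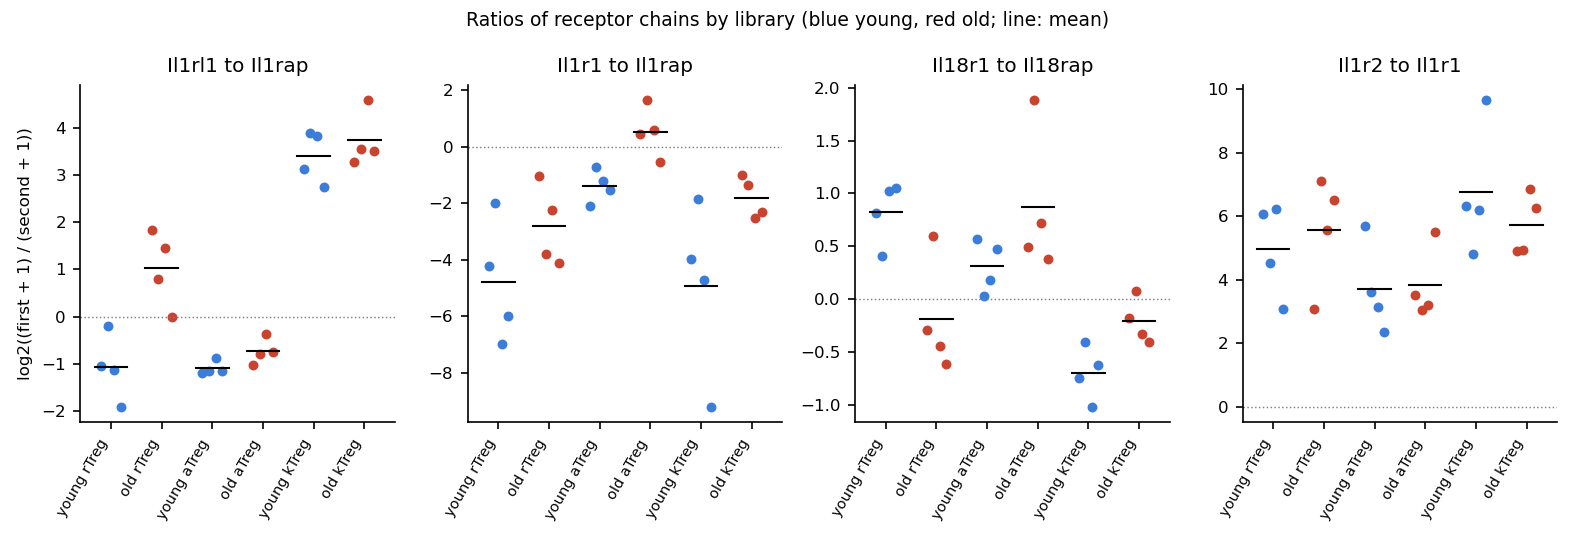
Log2 ratio of the normalized values (plus 1) of 4 pairs of receptor chains in every library, with young mice in blue, old mice in red and the mean of 4 libraries as a line. The Il1rl1 to Il1rap ratio is at least 2.75 in the 8 kTreg libraries and at most 1.83 in all others.

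Both chains of the IL-18 receptor were lowest in young rTreg cells. Il18r1, the ligand-binding chain, had values of 225, 306, 165 and 162 in young rTreg cells, 670, 764, 614 and 470 in young aTreg cells and 666, 762, 512 and 1515 in young kTreg cells. In old mice the values were 1035, 1236, 573 and 473 in rTreg, 1810, 2984, 1770 and 1510 in aTreg and 1405, 1677, 1160 and 1226 in kTreg cells. Young rTreg libraries lay below every young aTreg and kTreg library, and aTreg and kTreg libraries overlapped at each age. Il18r1 was higher than in rTreg cells by 1.46 ± 0.23 in aTreg cells (log2, SE, limma adjusted p = 0.00016) and by 1.37 ± 0.23 in kTreg cells (adjusted p = 0.00011), each in 8 of 8 mice. Without the old rTreg libraries these were 1.58 and 1.93, both called. In old mice alone the difference from rTreg cells was called for aTreg cells (1.34, limma adjusted p = 0.0095). It was not called for kTreg cells (0.82, adjusted p = 0.11), whose libraries overlapped those of rTreg cells. kTreg and aTreg cells differed by -0.09 (95% confidence interval -0.56 to 0.39), a difference not called (adjusted p = 0.85), with kTreg above aTreg cells in 1 of 8 mice. That mouse was young replicate 4, and without its 3 libraries the difference was -0.31.

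Il18rap, the accessory chain of IL-18, was lowest in rTreg and highest in kTreg cells in young mice, with smaller differences in old mice. Young libraries held 127, 230, 80.4 and 77.3 in rTreg, 452, 750, 543 and 338 in aTreg and 1117, 1013, 1040 and 2331 in kTreg cells, so the 3 young groups did not overlap. Old libraries held 1270, 816, 781 and 724 in rTreg, 1287, 807, 1071 and 1162 in aTreg and 1590, 1588, 1458 and 1628 in kTreg cells, and here rTreg and aTreg cells overlapped and kTreg cells lay above both. With both ages, the difference from aTreg to kTreg cells was 0.96 ± 0.22 (log2, SE, limma adjusted p = 0.0061), that from rTreg to kTreg cells 2.15 ± 0.22 (adjusted p = 2.7e-07) and that from rTreg to aTreg cells 1.19 ± 0.22 (adjusted p = 0.00096). kTreg cells exceeded aTreg and rTreg cells in 8 of 8 mice, and aTreg cells exceeded rTreg cells in 7 of 8. In young mice alone all 3 differences were called. In old mice alone none was called, at 0.55 for kTreg minus aTreg (limma adjusted p = 0.41), 0.84 for kTreg minus rTreg (adjusted p = 0.095) and 0.28 for aTreg minus rTreg (adjusted p = 0.64). The calls for kTreg minus aTreg (adjusted p = 0.26) and aTreg minus rTreg (adjusted p = 0.18) were lost with no age in the model. Without the old rTreg libraries, the differences from rTreg cells were larger, 3.46 for kTreg and 2.09 for aTreg cells, and both were called.

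Il1r1, the signalling receptor for IL-1, was higher in aTreg cells than in both other subsets. Values were 92.5, 263, 160 and 186 in young and 461, 764, 498 and 212 in old aTreg cells. They were 35.3, 88.0, 14.7 and 0 in young and 172, 186, 30.5 and 73.5 in old kTreg cells, and 16.4, 59.8, 1.32 and 7.03 in young and 169, 27.1, 52.0 and 35.8 in old rTreg cells. Within each age all aTreg libraries lay above all kTreg and rTreg libraries. The young kTreg library at 0 reads, replicate 4, allows up to 2.75 normalized units (3 reads, counting error only). Il1r1 was lower in kTreg than in aTreg cells by a log2 difference of -2.85 ± 0.75 (limma adjusted p = 0.014) and higher in aTreg than in rTreg cells by 3.40 ± 0.75 (adjusted p = 0.0041), each in the same direction in 8 of 8 mice. The first value was -2.20 without young kTreg replicate 4 and stayed called. It was not called without all 3 libraries of old replicate 3 (adjusted p = 0.057), and the second was not called without the old rTreg libraries (adjusted p = 0.050, log2 difference 3.80). With all libraries in the model, both were called in young mice alone, at -3.46 and 3.80 (limma adjusted p = 0.046 each). In old mice alone neither was called, at -2.24 (adjusted p = 0.30) and 2.99 (adjusted p = 0.077).

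Il1r2, the IL-1 decoy receptor, varied widely between mice of 1 age. In young mice the values were 1173, 1399, 174 and 67.3 in rTreg, 4820, 3212, 1412 and 967 in aTreg and 2912, 2517, 1137 and 808 in kTreg cells, and replicates 1 and 2 exceeded replicates 3 and 4 in all 3 subsets. In old mice they were 1432, 3845, 2520 and 3353 in rTreg, 5288, 6288, 4625 and 9769 in aTreg and 5169, 5750, 3614 and 5658 in kTreg cells. The order of the subsets was the same in every mouse, with aTreg above kTreg and kTreg above rTreg cells in 8 of 8. Compared with rTreg cells Il1r2 was higher by 1.89 ± 0.50 in aTreg (log2, SE, limma adjusted p = 0.016) and by 1.52 ± 0.50 in kTreg cells (adjusted p = 0.031). The difference of kTreg minus aTreg was -0.37 (95% confidence interval -1.41 to 0.67, adjusted p = 0.69). The model had no mouse term, so this interval includes the spread between mice and does not show these 2 subsets to be alike. In old mice alone the differences from rTreg cells were not called, at 1.25 in aTreg (limma adjusted p = 0.30) and 0.93 in kTreg cells (adjusted p = 0.45). Without the old rTreg libraries the differences from rTreg cells were 2.52 in aTreg (adjusted p = 0.058) and 2.11 in kTreg cells (adjusted p = 0.049). The kTreg minus rTreg call was lost on leaving out any 1 of 7 libraries and under edgeR and DESeq2, and a read from Il1r2 cannot be told from one of the antisense Gm16894, which overlaps it, where counting ignores strand.

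Sigirr was the most evenly expressed member. It lay between 4617 and 6817 normalized units in all 24 libraries, and the log2 differences between subsets, -0.04 for kTreg minus aTreg, 0.01 for kTreg minus rTreg and 0.04 for aTreg minus rTreg, had 95% confidence intervals within -0.16 and 0.17. Per kilobase of exon, its means of 1099 to 1449 were above those of Il1rl1 in all 6 groups.

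Old and young mice were compared within each subset. In rTreg cells, 4 of 7 members were higher in old mice, where 4.12% of all genes tested were called higher, and 0 lower, where 1.71% were. These were Il1rl1, Il18rap, Il18r1 and Il1r2. In aTreg cells Il18r1 was the 1 member called higher, against 1.85% of all genes, and 0 were called lower, against 0.86%. In kTreg cells limma called 0 of 7 members, against 1.26% of all genes in either direction. Of the 7 kTreg values, 3 passed the fold threshold and an unadjusted p below 0.05 (Il1r1, Il1r2 and Il18r1, all higher in old mice), and edgeR and DESeq2 each called 0. At that unadjusted setting 1486 of all 16630 genes were higher in old kTreg cells and 404 lower. The median log2 difference of the members was 2.22 in rTreg, 1.09 in aTreg and 0.41 in kTreg cells, against -0.08, 0.01 and 0.12 over all genes.

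**Figure D4:**
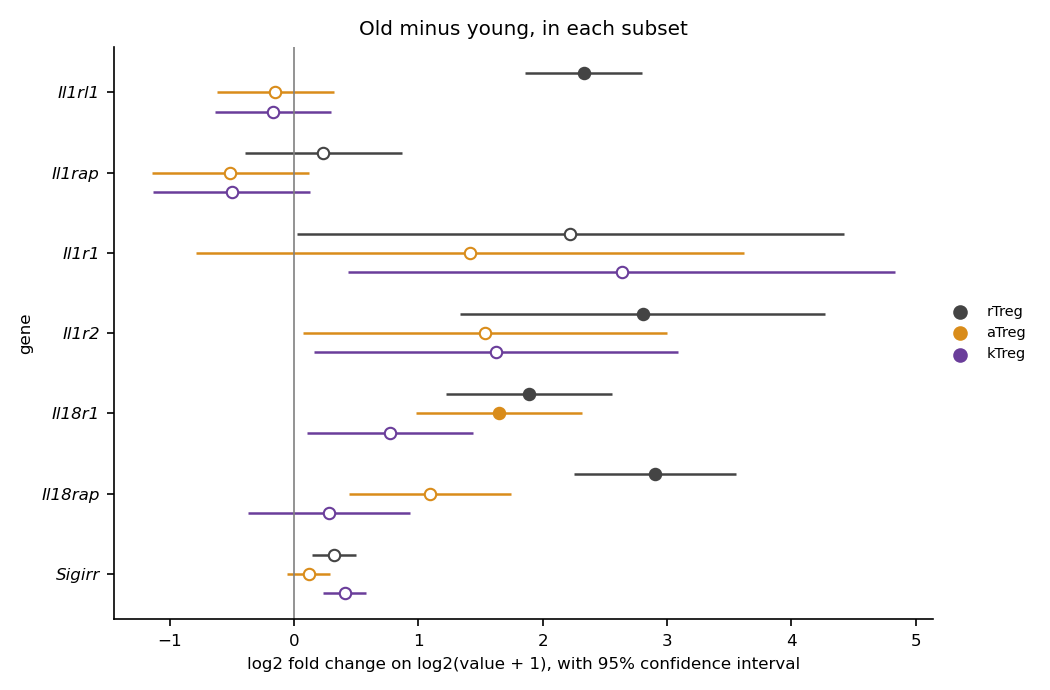
Log2 fold change of old minus young mice, on log2(normalized value + 1), for each member in rTreg, aTreg and kTreg cells, with 95% confidence intervals and filled points for those called. Il1rl1 and Il18rap moved in rTreg cells, by 2.33 and 2.90, and their intervals in kTreg cells include 0.

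In rTreg cells Il1rl1 was 2.33 ± 0.23 higher in old mice (log2, SE, limma adjusted p = 1.5e-06) and Il18rap 2.90 ± 0.31 (adjusted p = 5.9e-06), ranks 9 and 16 by p among the genes tested. Il18r1 was 1.89 ± 0.32 higher (adjusted p = 0.00075) and Il1r2 2.80 ± 0.71 (adjusted p = 0.018). In each of these 4 genes all old rTreg libraries lay above all young ones, narrowly for Il1r2 (lowest old value 1432, highest young value 1399). The share of all genes separated in this way is not given here, so the separation is a description. The Il1r2 call rested on single libraries, since it was lost without young rTreg replicate 3 or 4, the latter giving 1.98, and under edgeR. Il1r1 differed by 2.22 ± 1.06 with overlapping libraries (adjusted p = 0.22), and Il1rap by 0.23 ± 0.30 (adjusted p = 0.72).

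Markers of other cells moved with these rTreg values. The mast cell and basophil sum was 5154, 9950, 14511 and 8167 in old rTreg replicates 1 to 4, with Fcer1a, the high-affinity IgE receptor chain, at 645, 821, 2685 and 883 and Gata2, a factor of these lineages, at 788, 969, 1731 and 1461. In young rTreg libraries Fcer1a lay between 11.1 and 30.1 and Gata2 between 6.16 and 11.04. Il1rl1 was highest in old rTreg replicate 1, where the mast cell and basophil sum was lowest. The macrophage and monocyte sum was 17711, 10235, 26440 and 10438 in old rTreg replicates 1 to 4, so it was not lowest in replicate 1. NK cell markers, 6 genes all listed, summed to 1885 to 6049 in old and 356 to 1340 in young rTreg libraries, and neutrophil markers, 7 genes all listed, to 153 to 15837 and 39.1 to 4510. Sums of 5 markers of proliferating cells were 9017 to 12341 in old and 1950 to 7551 in young rTreg libraries. The part of these cells in the higher Il1rl1, Il18rap, Il18r1 and Il1r2 of old rTreg libraries was not tested. Klrg1 itself stayed low, and old rTreg libraries held on average 0.707% of the old kTreg mean of Klrg1, 18.5% of that of Il1rl1 and 57.3% of that of Il18rap.

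**Figure D5:**
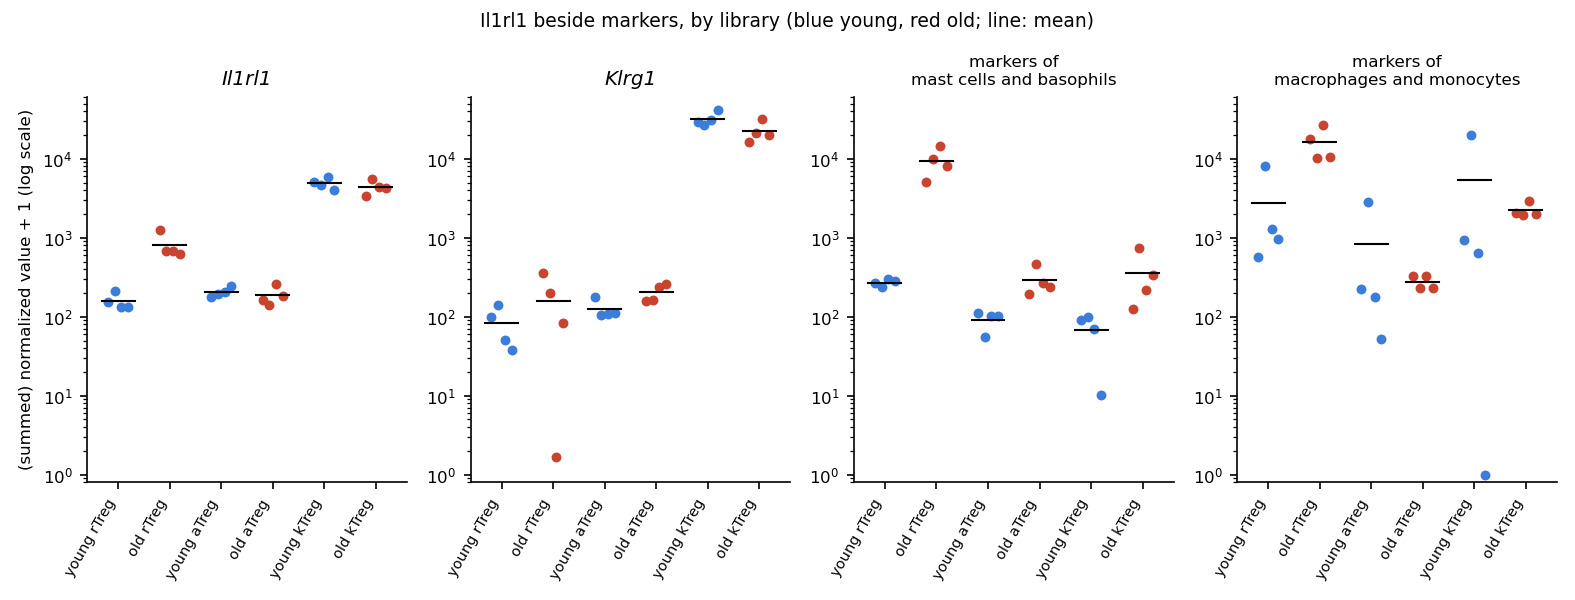
Normalized value plus 1 (log scale) of Il1rl1 and of Klrg1, and the summed values plus 1 of 8 mast cell and basophil markers and of 6 macrophage and monocyte markers, in every library, with young mice in blue, old mice in red and means as lines. The mast cell and basophil sum is at least 5154 in the old rTreg libraries and at most 751 in all others.

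In aTreg cells Il18r1 was 1.65 ± 0.32 higher in old mice (log2, SE, limma adjusted p = 0.0043), with all old libraries above all young ones. The old and young aTreg libraries of Il18rap did not overlap either, but the difference of 1.09 ± 0.31 was not called (adjusted p = 0.062). It was called without young aTreg replicate 2, and with DESeq2. Summed mast cell and basophil markers were 194 to 465 in old and 54.8 to 109 in young aTreg libraries, and those of macrophages and monocytes 229 to 326 and 52.0 to 2861. Il1rl1 differed by -0.15 with age in aTreg cells (95% confidence interval -0.62 to 0.32, adjusted p = 0.92) and by -0.17 in kTreg cells (-0.64 to 0.30, adjusted p = 0.72). Il18rap in kTreg cells differed by 0.28 (-0.37 to 0.93, adjusted p = 0.67). Every old aTreg library lay below every young one for Il1rap, and the log2 difference of -0.51 ± 0.30 was not called (adjusted p = 0.56). Sigirr was higher in old mice by 0.32 ± 0.08 in rTreg cells (adjusted p = 0.024) and by 0.41 ± 0.08 in kTreg cells (adjusted p = 0.017), with no overlap of the ages, and stayed under the fold threshold at 1.25 and 1.32 times.

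Whether age altered the differences between subsets was tested as an interaction, at an adjusted p below 0.05 with no fold threshold. For kTreg minus rTreg, 2 of 7 members were called, Il1rl1 with -2.50 ± 0.32 (log2, SE, limma adjusted p = 0.00031) and Il18rap with -2.62 ± 0.44 (adjusted p = 0.0021), against 3.05% of all genes. For aTreg minus rTreg the same 2 members were called, Il1rl1 with -2.48 ± 0.32 (adjusted p = 0.00045) and Il18rap with -1.81 ± 0.44 (adjusted p = 0.043), against 1.58% of all genes. Both contrasts share the rTreg libraries. For kTreg minus aTreg, which does not use them, limma, edgeR and DESeq2 each called 0 of 7 members, against 0.156% of all genes by limma. There 1 member, Sigirr (0.29 ± 0.12), had an unadjusted p below 0.05, as did 823 of all 16630 genes with a positive and 740 with a negative value. The Il18rap value for aTreg minus rTreg lost its call on leaving out any 1 of 18 libraries.

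The rest of the pathway was counted from lists. Of 18 adaptors and kinases downstream of these receptors, all listed and tested, 0 were called in any of the 3 subset or 3 age contrasts. Over all genes, the most calls were in kTreg minus rTreg, 9.37% higher and 6.09% lower. The fewest were in old minus young kTreg cells, 1.26% in either direction, so few calls among 18 genes are no result about the pathway. On leaving out the old rTreg libraries 1 of the 18 was called, Irak3, an inhibitor of this pathway. It was higher in kTreg than in rTreg cells by 0.82 ± 0.24 (limma adjusted p = 0.018), where 9.66% of all genes were. Irak2, a kinase of the MYD88 complex, had an adjusted p of 0.0095 by limma for kTreg minus aTreg at a log2 difference of 0.46 ± 0.11, under the fold threshold. Of 8 ligands, 3 were listed (Il1b, Il18 and Il36g), and Il18 was the 1 called: it was higher in kTreg than in aTreg cells by 2.01 ± 0.66 (adjusted p = 0.048) and than in rTreg cells by 3.16 ± 0.66 (adjusted p = 0.0011), or 3.41 (adjusted p = 0.00011) without the old rTreg libraries. Il18 ranged from 233 to 591 in young and from 139 to 201 in old kTreg libraries, and from 18.2 to 119 in young and from 40.0 to 76.8 in old aTreg libraries. Il33 was not among the listed genes and was not analysed here. Macrophages also express Il18. Their marker sum ranged from 0 to 19824 in young kTreg libraries and was highest in replicate 2, which also held the highest Il18, 591. It was 0 in replicate 4, which held 278 for Il18 and listed 4913 genes at 0. The sum was 1954 to 2883 in old kTreg libraries, against 229 to 326 in old and 52.0 to 2861 in young aTreg libraries. Old rTreg libraries had sums of 10235 to 26440 and Il18 values of 0 to 72.8. The part of macrophages in the Il18 values was not tested.

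Among 6 other receptors and soluble inhibitors, 3 were listed (Il1rl2, Il18bp and Il1rn). Il1rl2 was lower in kTreg than in aTreg cells by a log2 difference of -2.32 ± 0.61 (limma adjusted p = 0.014) and than in rTreg cells by -1.78 ± 0.61 (adjusted p = 0.038), the latter not called without the old rTreg libraries (-1.51, adjusted p = 0.24). Il18bp, which encodes a soluble trap for IL-18, was lower in kTreg than in aTreg cells by -1.85 ± 0.55 (limma adjusted p = 0.029), its mean being 447 ± 125 (SD, n = 4) in old aTreg cells and 108 to 147 in the 5 other groups. Its young kTreg libraries ranged from 2.75 to 346. No gene of this list was called with age. Il1rn, the IL-1 receptor antagonist, ranged from 0 to 264 over the 24 libraries and was not called in any of the 6 contrasts.

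Genes known for ST2-positive Treg cells of tissues formed the last list, 16 genes, all tested, which was chosen with earlier results of these data known and is no independent evidence of a direction. In kTreg cells 10 were called higher than in aTreg cells, where 4.13% of all genes were, and 15 higher than in rTreg cells, where 9.37% were, and 0 lower in either contrast. Those with the smallest p for kTreg minus aTreg were Cd200r1 (1.80 ± 0.10, limma adjusted p = 3.3e-10), Gata3 (1.16 ± 0.10, adjusted p = 2.1e-07), Pparg (3.07 ± 0.46, adjusted p = 0.00011) and Prdm1 (1.62 ± 0.26, adjusted p = 0.00022). GATA3 binds the Il1rl1 locus in type 2 cells, PPARG is the factor of adipose tissue Treg cells and Prdm1 encodes BLIMP1. Areg, the tissue repair factor, was called higher in kTreg than in aTreg cells too, at 1.74 ± 0.49 (adjusted p = 0.023), and Batf at 0.63 ± 0.15 (adjusted p = 0.0074). Gata3 averaged 7265 ± 202 (SD, n = 4) in young and 8140 ± 1457 in old kTreg cells, against 2811 ± 313 in young and 2888 ± 636 in old rTreg cells, where its values overlapped between the ages. aTreg cells exceeded rTreg cells in 11 of the 16 genes, against 5.23% of all genes, led by Id2 (2.48 ± 0.14, adjusted p = 1.6e-10), and 0 were lower. When the old rTreg libraries were left out, 16 were called higher in kTreg and 11 in aTreg than in rTreg cells. With age 12 of the 16 were called higher in rTreg cells (4.12% of all genes), 5 in aTreg cells (1.85%) and 1 (Bhlhe40, 1.88 ± 0.41, adjusted p = 0.021) in kTreg cells (1.02%), and 0 lower. In rTreg cells the smallest p were those of Id2 (1.51 ± 0.20, adjusted p = 4.9e-05) and of Itgae, which encodes CD103 (2.32 ± 0.33, adjusted p = 0.00014), in the same 4 old libraries that held the markers of other cells. In aTreg cells they were those of Id2 (1.76 ± 0.20, adjusted p = 2.4e-05) and Pparg (3.67 ± 0.64, adjusted p = 0.0018).

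The genes whose levels ran most like those of each member over the 24 libraries were listed by Pearson's r of log2(value + 1), as a description, since the libraries share mice and subsets. For Il1rl1 they included the chemokine receptor gene Ccr10 (0.928), Nid2 (0.920), the eotaxin receptor gene Ccr3 (0.913) and Spin1 (0.906). For Il18rap they were Myo1f (0.953), Ttc39c (0.946) and Arnt2 (0.943), and for Il18r1 Nebl (0.914), the chemokine receptor gene Cxcr3 (0.911) and Zc2hc1a (0.900). Il1r1 ran with Plekhf1 (0.904) and the IL-17 receptor family gene Il17re (0.890), among others. Il1r2 ran with Cst7 (0.910), Slc7a10 (0.895) and the inhibitory receptor gene Lag3 (0.884). The closest genes to Sigirr (Gzmk, 0.806, Fhip1a, 0.778, and Esm1, 0.773) and Il1rap (Zc3h14, 0.687, Castor2, 0.686, and Fam118a, 0.682) had lower values. Among the members, the IL-18 receptor chains were most alike (0.859), Il1rl1 and Il18rap reached 0.658, and Il1rl1 and Il1r1 -0.204, although all 4 genes lie in 1 cluster.

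Genes beside the members did not share one pattern. Slc9a2, the next listed gene after Il18rap, was not called between subsets and was higher in old than young aTreg cells (6.05, limma adjusted p = 0.015) from values of 8.84 normalized units or less in young ones. Gm16894, antisense to Il1r2, was higher in kTreg (1.70, adjusted p = 0.0011) and aTreg cells (1.37, adjusted p = 0.013) than in rTreg cells, and Gm37347, within Il1r2, in kTreg cells (3.11, adjusted p = 0.0054). Both overlap Il1r2. Without the old rTreg libraries, both were called for kTreg cells (2.15 and 3.88) and Gm16894 was not for aTreg cells (1.73, adjusted p = 0.051). Next to Il1rap, Ccdc50 was lower in kTreg than in aTreg cells (-0.86, adjusted p = 0.00031) and Morf4l1-ps1 was not called in any of the 6 contrasts. Next to Sigirr, Pkp3 and Ptdss2 stayed under the fold threshold or were not called in any of them.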

How the data were processed

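RNA of sorted splenic Treg subsets was turned into cDNA with SMART-Seq v4 and sequenced as paired reads of 150 bases. The authors aligned reads to GRCm39 with HISAT2 2.2.1, counted them per gene with HTSeq 1.99.2 and used DESeq2 1.44.0 (names and versions per the submitters' processing notes). The annotation release and strand setting are not given in the sources used here. What the authors deposited is a normalized signal, the reads of a gene over the size factor of its library. In this form 1 unit is close to 1 read, all values were whole reads within a tolerance of 0.001, and precision is limited by 15045747 to 29521942 reads per library. PCR copies carry no molecular identifiers, so the floor of 3 reads covers counting error only.

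GENCODE M39 gave symbols for 17353 of 17464 identifiers. R 4.3.3 with limma 3.58.1 (trend on the mean) was run with 6 groups as the model and log2(value + 1) as the response for 16630 genes, a scale that understates changes of low genes. Genes were called at an adjusted p below 0.05 (Benjamini-Hochberg) and a fold above 1.5, interactions by the adjusted p alone. The design text states that the 3 subsets were taken from the same mice, and libraries of 1 number are therefore paired. Deviations from group means correlated with a median of 0.153 within a mouse and -0.033 between mice for rTreg and aTreg cells, 0.091 and -0.034 for rTreg and kTreg, and 0.115 and -0.051 for aTreg and kTreg cells. Scripts were first tested on simulated data. Alternatives were other pseudocounts, filters and scalings, the replicate block, other models, edgeR 4.0.16 and DESeq2 1.42.0 on the recovered reads, and leaving out libraries or mice. Leaving out whole mice and the old rTreg group were added after seeing the data. The members and lists were chosen with earlier results of these data known. Named genes were the members, the sort markers, up to 4 called genes per list and contrast by smallest p, the 5 genes most like Il1rl1 and 3 for each other member, and the listed neighbours on the chromosome. Some of the genes this rule names are not reported here. Areg, Batf and Irak2 were named after their values were seen. Python 3.11.15 with pandas 2.3.3 and matplotlib 3.10.9 made the tables and plots.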

Additional observations from a re-analysis of the deposited data

Results flagged for a closer look

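Of 42 sets of 4 libraries (7 members in 6 groups), 3 had a library far from the other 3 by Dixon's criterion at 95%, a count near the 1 in 20 that chance gives. Il1rl1 in old rTreg cells was highest in replicate 1, at 1249, and Il18rap in the same library at 1270. Without that library the higher values of old rTreg cells remained called for both genes. Il18rap in young kTreg cells was highest in replicate 4, at 2331, the library with the most genes at 0.

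The difference between subsets changed with age for Il1rl1 and Il18rap, by the interaction test of limma. Il1rl1 gave -2.50 for kTreg minus rTreg and -2.48 for aTreg minus rTreg, and Il18rap -2.62 and -1.81. All 4 values use the old rTreg libraries, whose markers of other cells are given above, and the part of these cells was not tested.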

How the results depend on the processing

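The 21 called values of members kept their direction under every alternative run for them (43 to 45 each), with 1 exception, and 12 of them kept their call in every alternative that could be run. The exception was Il1rl1 in aTreg minus rTreg without the old rTreg libraries (0.38, against -0.86). The age contrasts of rTreg cells and the interactions with rTreg cells could not be put to this alternative. Their kept calls therefore say nothing of dependence on the old rTreg libraries. Without those libraries the members called in aTreg minus rTreg were 2, as with no age in the model (2, against 5), and log2 differences from rTreg cells for kTreg cells became 4.97 for Il1rl1, 3.46 for Il18rap and 2.11 for Il1r2. Sigirr in kTreg minus rTreg turned to -0.036. For old minus young aTreg, 2 members were called with pseudocount 5, with only the groups compared and with DESeq2, Il18rap being added, and 3 at an unadjusted p. An unadjusted p gave 3 in kTreg cells with age and 1 for the age difference of kTreg minus aTreg. Over all 16630 genes an unadjusted p gave 844 higher and 511 lower in aTreg cells with age, and 1486 and 404 in kTreg cells. For the age difference of kTreg minus aTreg it gave 823 and 740. For the age difference of aTreg minus rTreg, only the groups compared and edgeR gave 1, without Il18rap. The cause was not tested. Values near 0 turned sign: Il1rap in aTreg minus rTreg (-0.025 with edgeR, -0.0295 with DESeq2), Il1rl1 (0.077 with equal totals) and Il1rap (-0.012 with TMM) in the age difference of kTreg minus aTreg, and Il1r1 in that of kTreg minus rTreg (-0.0084 with edgeR, -0.0018 with DESeq2).

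Leaving out single libraries or mice gave 1 to 2 members called for old minus young aTreg and 1 to 2 for the age difference of aTreg minus rTreg. It turned the sign of some uncalled values, with ranges of -0.051 to 0.25 (Il1rap) and -0.31 to 0.018 (Il18r1) in kTreg minus aTreg, -0.035 to 0.031 (Sigirr) in kTreg minus rTreg, -0.10 to 0.15 (Il1rap) in aTreg minus rTreg and -0.0071 to 0.44 (Il1rap) in old minus young rTreg. In the age difference of kTreg minus aTreg the ranges were -0.27 to 0.15 (Il1rl1), -0.28 to 0.33 (Il1rap), -0.14 to 2.08 (Il1r1) and -0.30 to 0.47 (Il1r2), and in that of kTreg minus rTreg -0.89 to 1.27 (Il1r1). Il1r2 lost its call in kTreg minus rTreg without young rTreg replicate 3 or 4, young kTreg 1 or 2, old rTreg 1 or old kTreg 2 or 4, and in aTreg minus rTreg without young mouse 3 or old mouse 1 or 4. Old minus young rTreg for Il1r2 was 3.44 without young rTreg replicate 2 and 1.98 without replicate 4. Il1r1 in kTreg minus aTreg was -2.17 without young mouse 4. With the mouse as a replicate block, 3 members were called in kTreg minus aTreg, 4 in kTreg minus rTreg, 5 in aTreg minus rTreg and 4 in old minus young rTreg, and no count of members called changed. The block used 1 correlation for all genes, 0.062. It cannot show what pairing does for a gene such as Il1r2, which varied widely between mice. Depth limits Il1r1 most, at 1.32 units in young rTreg replicate 3 and 0 reads in young kTreg replicate 4.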
